A study of Mus musculus with 4 samples.

Results

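The major histone gene cluster of the mouse lies on chromosome 13 and was described here through the CTCF summits in and around it. Its members were the RefSeq genes between positions 21700000 and 23800000 of chromosome 13 (mm10, RefSeq assembly GRCm38.p6) whose symbols begin with Hist1h, H1f, H2ac, H2bc, H3c or H4c. The rule found 53 of the 49943 genes on chromosomes 1 to 19, X and Y, of which 51 were protein coding and 2 were pseudogenes (H2ac14 and H2ac5-ps). The members comprised 14 H2A, 13 H2B, 9 H3, 11 H4 and 6 linker histone H1 genes, so the locus had the composition its name gives.

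CTCF was mapped by CUT&RUN, in which an antibody guides a nuclease to the bound protein and the released DNA is sequenced, with 1 library for each of 4 mESC lines (embryonic stem cells of the mouse). All 4 genotypes shared a HoxB Del allele opposite a Del(i9-13) allele that held an inserted array of CTCF binding sites, Ins(CBS5-10). The array was intact in the Ins library, carried Del(CBS8-10) in the next, carried Inv(CBS5-10) in the Inv library, and carried Inv(CBS5-10) together with Del(CBS7-10) in the last, called Inv:Del(CBS7-10). These edits lie in HoxB on chromosome 11 and no labelled edit lies on chromosome 13. A genotype was represented by 1 library, so a difference between genotypes cannot be told apart from a difference between libraries or cell lines, no p-value was computed, and no replicate error can be given.

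Replication-dependent histone genes are short genes without introns whose mRNAs are made mainly in S phase and end in a stem-loop in place of a poly(A) tail. Many H2A and H2B genes stand head to head and share a short promoter that fires in both directions, and the genes are gathered in a nuclear body around the co-activator NPAT. CTCF is a zinc-finger protein that binds a long motif, halts cohesin and marks many boundaries between chromatin domains.

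The authors' peak caller gave each peak a summit and a −log10 q, where a higher value means a peak further above the background of its own library. These values are the authors' own and are used here only to describe and rank peaks within a list. The lists held 93969 peaks for Ins, 74555 for Del(CBS8-10), 66365 for Inv and 99177 for Inv:Del(CBS7-10), with median −log10 q values of 17.8, 12.2, 12.5 and 24.1. The sources used here do not give read depth, so list length and these medians are the nearest measure of how much each library could show.

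The promoters of H2A and H2B genes carried most of the summits found at histone genes, and 5 of them are shown because their summits illustrate the range from all lists to some. Each sequence is taken from the RefSeq promoter table (GRCm38.p6), reads 5′ to 3′ on the strand of the named gene and ends at the base before its start. Capitals mark CCAAT (a box bound by NF-Y), the TATA box letters TATAAA, the octamer ATTTGCAT (bound by Oct factors and known from H2B promoters) and the box AAACACA (known from H1 promoters), each read on either strand. The stretch upstream of H2bc14 is chr13:21721802-21722043 on the plus strand, that of H2bc15 is chr13:21753913-21754075 on the plus strand, that of H2bc11 is chr13:22042950-22043197 on the plus strand, that of H2ac6 is chr13:23683960-23684198 on the minus strand and that of H2bc3 is chr13:23746515-23746733 on the plus strand.
H2bc14: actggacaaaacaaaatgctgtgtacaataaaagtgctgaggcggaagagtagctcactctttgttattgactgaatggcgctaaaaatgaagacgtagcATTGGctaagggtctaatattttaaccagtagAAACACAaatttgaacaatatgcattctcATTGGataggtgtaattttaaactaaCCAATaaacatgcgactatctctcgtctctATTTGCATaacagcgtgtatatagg
H2bc15: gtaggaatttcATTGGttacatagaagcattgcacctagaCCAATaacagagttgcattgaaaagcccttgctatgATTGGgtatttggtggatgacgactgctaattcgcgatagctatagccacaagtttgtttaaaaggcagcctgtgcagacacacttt
H2bc11: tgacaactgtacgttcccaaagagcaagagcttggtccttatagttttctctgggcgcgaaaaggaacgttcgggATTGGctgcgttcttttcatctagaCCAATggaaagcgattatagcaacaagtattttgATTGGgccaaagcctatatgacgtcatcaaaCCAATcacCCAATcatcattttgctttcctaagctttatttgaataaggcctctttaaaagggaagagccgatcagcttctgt
H2ac6: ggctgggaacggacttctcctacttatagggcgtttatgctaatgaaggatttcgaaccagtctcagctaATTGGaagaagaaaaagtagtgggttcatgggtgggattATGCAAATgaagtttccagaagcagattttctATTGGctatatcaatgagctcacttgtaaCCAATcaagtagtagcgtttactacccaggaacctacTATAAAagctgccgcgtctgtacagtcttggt
H2bc3: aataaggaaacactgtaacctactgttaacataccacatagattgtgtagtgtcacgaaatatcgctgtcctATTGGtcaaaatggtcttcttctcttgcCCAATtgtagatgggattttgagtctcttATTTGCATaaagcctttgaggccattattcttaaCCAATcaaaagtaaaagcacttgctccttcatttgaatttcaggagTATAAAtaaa

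The H2bc14 stretch held the strongest summit at any histone start, at base 174 in Inv:Del(CBS7-10), and further summits at base 163 in Ins and base 211 in Inv. The H2bc15 sequence is the whole stretch of 163 bases between the starts of H2ac15 and H2bc15, and all 4 lists had a summit in it, at base 71 in Ins, base 41 in Del(CBS8-10), base 1 in Inv and base 69 in Inv:Del(CBS7-10). In the H2bc11 stretch, which H2bc11 shares with H2ac11, the summits lay at base 147 in Inv and base 133 in Inv:Del(CBS7-10). All 4 lists also had a summit upstream of H2ac6, at bases 165, 119, 204 and 149 in the same order. Upstream of H2bc3 the summits of Ins and Inv:Del(CBS7-10) lay 5 bases apart, at bases 102 and 97.

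Weak summits lay at the promoters of many histone genes, while the strong CTCF sites of the locus lay beside the genes and between them. A summit within 500 bp of a gene start, here called a promoter summit, was found for 10 histone genes in Ins, 5 in Del(CBS8-10), 21 in Inv and 29 in Inv:Del(CBS7-10). The same share over all 46856 genes outside chromosome 11 was 14.0%, 9.04%, 10.6% and 13.0%, and for the histone genes it was 18.9%, 9.43%, 39.6% and 54.7%. Over the 1488 protein-coding genes of at most 1 kb, the length class of most histone genes, it was 3.70%, 2.55%, 3.49% and 4.64%, and over all 20278 protein-coding genes it was 26.4%, 16.7%, 20.0% and 24.1%. The members were not taken out of these gene sets. Most of them are among the short genes, so the comparison with short genes is partly one of the cluster with itself. Only a gene with a listed start can have a promoter summit. Starts were listed for 48 of the 53 members, while 30561 promoter windows were read for the 46856 genes. Genes without a start thus lower the share over all genes. The small differences from it in Ins and Del(CBS8-10) cannot be read as an excess. In both libraries with an inverted array the histone share was well above that of all genes. Set against protein-coding genes of any length, the histone share was lower in Ins and Del(CBS8-10) and higher in both inverted-array libraries.

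**Figure D1:**
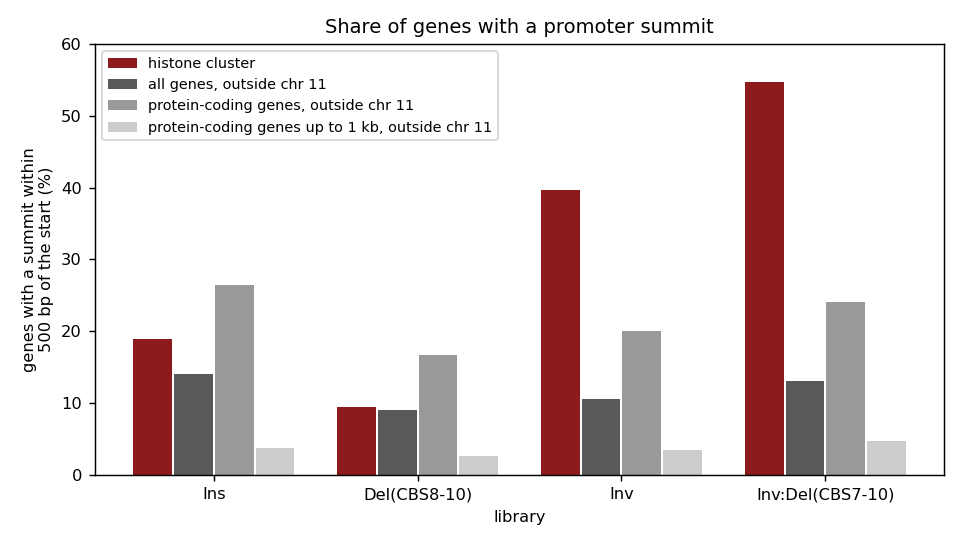
Percentage of genes with a summit within 500 bp of a start, by library, for the histone cluster and for the background gene sets. The histone bars reach 39.6% in Inv and 54.7% in Inv:Del(CBS7-10), while the share over all genes stays between 9.04% and 14.0%.

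Every histone gene with a promoter summit in any list had 1 in Inv:Del(CBS7-10), and 29 members, or 54.7%, had a promoter summit in at least 1 list. The background was 17.0% of all genes, 31.7% of protein-coding genes and 5.51% of short ones. Only 5 members, or 9.43%, had a promoter summit in all 4 lists, against 6.78%, 12.6% and 1.95% in the same gene sets. These were H2ac15, H2bc15, H2bc23, H2ac23 and H2ac6. The window can take in separate sites in different lists, and it did so for H2bc23 and H2ac23, H2bc6, H4c3 and H4c2. A further 4 members had 1 in 3 lists, 13 in 2 lists and 7 in 1 list. Starts were listed for 48 of the members, and 19 of these had no promoter summit anywhere. The counts are of genes and not of sites, since both genes of a head-to-head pair take the same summit. Counted as summits, the histone starts had 8 in Ins, 3 in Del(CBS8-10), 16 in Inv and 24 in Inv:Del(CBS7-10).

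The Inv list was the shortest and still held 16 summits at histone starts against 8 in Ins, the second longest. Over all genes the order was the reverse, with 10.6% in Inv and 14.0% in Ins. A list of 22 histone genes outside this cluster and outside chromosome 11 did not show the order of the cluster. Promoter summits were at 8 of them (36.4%) in Ins and 4 (18.2%) in Inv (4 in Del(CBS8-10) and 8 in Inv:Del(CBS7-10)). This list was chosen by name and includes variant genes such as H3f3a, H2az1 and Macroh2a1, so it is not a like set. Most of the summits behind the difference between Inv and Ins were weak, as a −log10 q of at least 10 was reached by 1 of 8 in Ins and 2 of 16 in Inv. With such peaks alone, a summit at the promoter or in the gene was left for 2 members in Ins, 1 in Del(CBS8-10), 3 in Inv and 18 in Inv:Del(CBS7-10). This cut is not alike in the lists, since it kept 64.1% of Ins and 57.6% of Inv summits outside chromosome 11. With 1 library per genotype the difference between Inv and Ins was not tested.

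The promoter summits divided by histone family. H2A genes had a promoter summit in at least 1 list for 10 of 12 genes with a listed start, and H2B genes for 11 of 12. H4 genes had 1 for 5 of 11, H3 genes for 2 of 7 and H1 genes for 1 of 6. All 5 genes found in every list were H2A or H2B genes. Pairs of H2A and H2B genes share a promoter, so these counts are not independent of each other.

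Head-to-head H2A and H2B pairs with both starts listed numbered 8, with 163 to 248 bases between the starts, and 7 of them had a summit in at least 1 list. The count of pairs with a summit was 2 in Ins, 2 in Del(CBS8-10), 5 in Inv and 7 in Inv:Del(CBS7-10). H2ac15 and H2bc15 had the steadiest shared promoter, with a −log10 q of 8.65 in Ins, 8.48 in Del(CBS8-10), 9.15 in Inv and 17 in Inv:Del(CBS7-10). The pair H2bc23 and H2ac23 was also found in every list, at 1.41, 4.49, 8.35 and 11.3 in that order. Its summits did not coincide, lying at position 21810166 in Ins (percentile 0.0644 of that list) and between 21810345 and 21810407 in the other lists.

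The next pairs were seen in the inverted-array libraries alone. H2bc13 and H2ac13 had a −log10 q of 6.33 in Inv and 9.16 in Inv:Del(CBS7-10), and H2ac11 and H2bc11 had 6.45 and 12. H2ac22 and H2bc22 had a shared summit at 2.75 in Inv and 10.4 in Inv:Del(CBS7-10). H2ac22 had a stronger one of 22.2 in Inv:Del(CBS7-10) at 496 bp from its start. That summit lay near the edge of the window and 22 bp past the far end of the gene. The pairs H2ac12 and H2bc12 (5.66) and H2ac8 and H2bc8 (10.6) were found in Inv:Del(CBS7-10) alone. The pair H2bc7 and H2ac7 had no promoter summit in any list.

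Among the other H2A and H2B genes, which encode the dimer on the faces of the nucleosome, H2bc14 stood out with a −log10 q of 14.6 in Ins, 14.4 in Inv and 74 in Inv:Del(CBS7-10) and no summit in Del(CBS8-10). Absence was read against like peaks, which are the peaks outside chromosome 11 whose −log10 q lay within 20% of the value in the list where the site was strongest. Of 6570 peaks like the H2bc14 summit in Inv:Del(CBS7-10), 380 had no summit within 100 bp in Del(CBS8-10), which is 5.78% (95% Wilson interval 5.24% to 6.37%, counting error only). That low share rests on the value of 74 in Inv:Del(CBS7-10). Read from the weaker H2bc14 summits, 17.2% of 7787 like peaks of Inv and 38.1% of 8117 like peaks of Ins were missing from Del(CBS8-10). The other 24 promoter sites missing from Del(CBS8-10) had like peaks missing in 43.8% to 92.8% of cases. The 20 promoter sites missing from Ins had like peaks missing there in 23.1% to 84.3% of cases. The strongest of them, with the share of 23.1%, was the H2ac22 site past the far end of its gene. The next lowest share was 27.6%, at H4c6.

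H2ac6 was found in every list and differed more between lists in rank than the other 4 such genes, with a −log10 q of 2.97 in Ins, 7.35 in Del(CBS8-10), 14.9 in Inv and 24.3 in Inv:Del(CBS7-10). These values lie at percentiles 3.48, 35.1, 55.7 and 50.4 of their own lists, where a percentile is the share of a list's peaks at or below that −log10 q. H2bc4 faces H2ac6 across this stretch but has no start in the promoter table, so it was not counted. H2bc9 had a promoter summit at 3.39 in Ins, 5.3 in Inv and 14.6 in Inv:Del(CBS7-10). H2bc6 has 2 listed starts far apart, and its summits in Inv (4.05) and Inv:Del(CBS7-10) (13.5) lay at 23586027 and 23586071 by one of them. Its Ins summit (3.09) lay at 23621574, 480 bp from the other start, so these were different sites. By that other start Inv:Del(CBS7-10) had a further summit (8.43) at 23621273, 179 bp away. H2bc3 had 4.94 in Ins and 20.5 in Inv:Del(CBS7-10), while H2ac24 (6.45 and 11.3) and H2ac10 (4.97 and 8.58) were found in the Inv and Inv:Del(CBS7-10) lists alone.

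The H3 and H4 genes, which encode the tetramer at the nucleosome core, had fewer promoter summits than the H2A and H2B genes. In Inv:Del(CBS7-10) they were found for 5 of 11 H4 genes and 2 of 7 H3 genes with a listed start. The H4 share was above the 24.1% of protein-coding genes in that list, and below the share of protein-coding genes in the other lists. Their −log10 q was under 10 except at H3c8 and H4c6 in Inv:Del(CBS7-10), and H4c6 (19) lay above the median of 10.5 at histone starts. H3c8 (6.99 and 10.3) and H3c6 (3.82 and 3.32) were found in Inv and Inv:Del(CBS7-10). H4c3 had a summit upstream of its start in Inv:Del(CBS7-10) alone (9.49, at −112 bp). Its summits in Ins (6.3, at 393 bp) and Inv (4.87, at 380 bp) were another site, past the far end of this gene of 375 bp, and count as promoter summits only because the gene is shorter than the window. H4c2 likewise had separate sites, at 345 bp in Inv (4.05) and at 35 bp in Inv:Del(CBS7-10) (3.27). H4c6 (19), H4c11 (6.57) and H4c17 (2.17) were found in Inv:Del(CBS7-10) alone, with the H4c11 summit at 442 bp, also past the end of the gene. Apart from H4c3, no H3 or H4 gene had a promoter summit in Ins. No H3 or H4 gene had a promoter summit in Del(CBS8-10).

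Linker histone genes encode H1, which binds the DNA that enters and leaves the nucleosome. Of these, only H1f2 had a promoter summit, at 3.31 in Inv and 9.81 in Inv:Del(CBS7-10), and it had a summit of 3.39 inside the gene in Ins. H1f4 had a summit inside the gene in Inv (4.34) and none at its start.

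**Figure D2:**
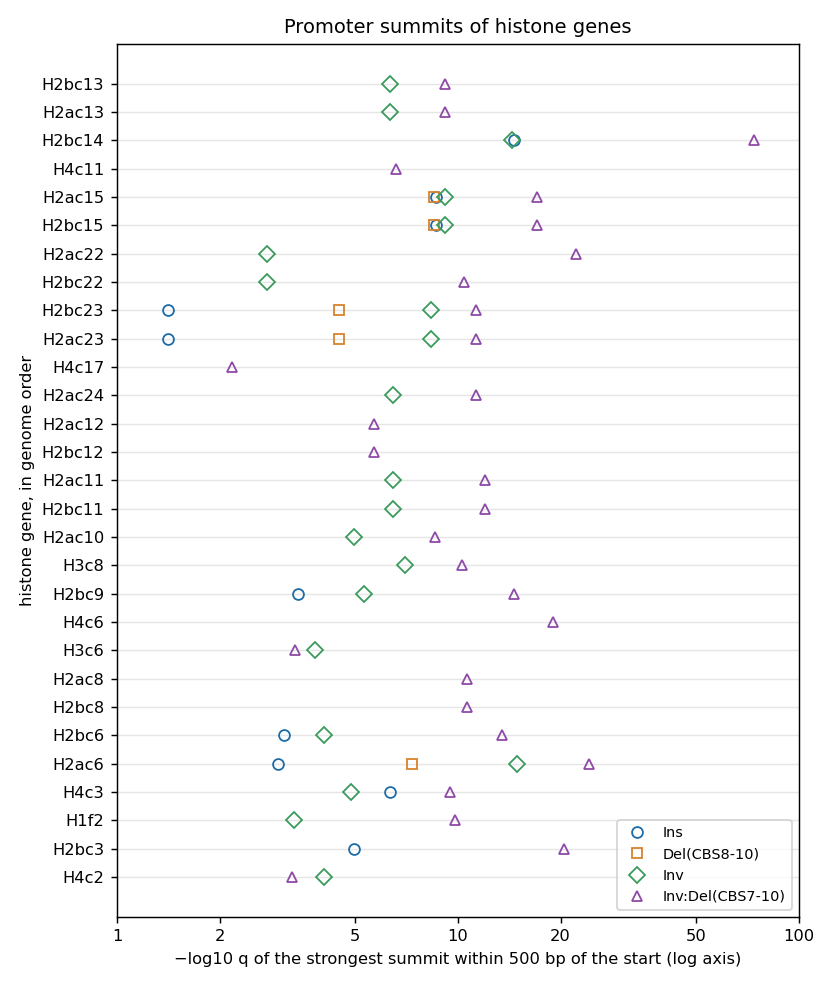
The −log10 q of the strongest summit within 500 bp of the start (log axis) for each histone gene with a promoter summit, by library; points of a gene need not be the same site. Most points lie below 20, and the value of 74 for H2bc14 in Inv:Del(CBS7-10) is the highest.

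Counting a summit at the promoter or in the gene, 31 members, or 58.5%, had 1 in at least 1 list and 6, or 11.3%, in all 4. The background was 44.8% and 29.6% of all genes, 69.6% and 50.1% of protein-coding genes, and 6.59% and 2.28% of protein-coding genes of at most 1 kb, since long genes collect summits in their bodies. The count was 12 in Ins, 6 in Del(CBS8-10), 22 in Inv and 30 in Inv:Del(CBS7-10), which is 22.6%, 11.3%, 41.5% and 56.6% of the members. In the same order of libraries the share was 39.7%, 35.2%, 33.7% and 39.8% of all genes, 64.0%, 57.7%, 55.8% and 63.6% of protein-coding genes, and 4.64%, 3.36%, 3.90% and 5.51% of the short ones. The histone shares lay between those of short genes and of all protein-coding genes in every list. The sixth gene found in every list was H2bc6, whose RefSeq span of 37455 bp covers a strong site far from either of its starts. H2bc22, with a span of 14079 bp, gained the Ins list in the same way (5.15), and H3c7 had a summit inside the gene in Inv:Del(CBS7-10) (7.72).

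The promoter summits lay mostly just upstream of the nearest histone start. For a summit between head-to-head starts this holds by construction. No offsets at other genes are given for comparison. Of the 24 in Inv:Del(CBS7-10), 20 lay upstream of the nearest histone start and 19 of these within 200 bp of it, at a median offset of −91 bp. In Inv 13 of 16 lay upstream, all within 200 bp, at a median of −49 bp. Ins had 6 of 8 upstream with a median of −77 bp, and Del(CBS8-10) had 2 of 3 with a median of −41 bp.

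These summits ranked low within their lists. The median −log10 q at histone starts was 4.16 in Ins, 7.35 in Del(CBS8-10), 5.81 in Inv and 10.5 in Inv:Del(CBS7-10), at median percentiles of 9.38, 35.1, 20.9 and 31.0 of the list. Summits within 500 bp of any protein-coding start had median percentiles of 40.2, 38.7, 38.6 and 40.9. The median at histone starts was below that of all protein-coding starts in each list, by least in Del(CBS8-10), which rests on 3 summits. A −log10 q of at least 10 was reached by 1 of 8, 0 of 3, 2 of 16 and 14 of 24 histone summits. Among summits at protein-coding starts the share was 56.4%, 41.8%, 45.8% and 64.0%. In Inv:Del(CBS7-10) the histone share, 58.3%, was thus close to that of protein-coding starts.

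The promoter windows held the short motifs of histone promoters and no match to the CTCF core consensus. Windows of 300 bases (250 before to 50 after the start) were read on both strands for 49 starts, since H2bc6 has 2. The CTCF core consensus, allowing 1 mismatch in 12 letters, matched 0 of the 49 windows, against 4.29% of 30561 windows outside chromosome 11. Among the other windows the share rose with the strongest summit inside, from 2.44% with no summit and 112 of 2729 windows with a −log10 q under 10 to 9.97% between 10 and 100 and 45.9% at 100 or more. Of the 27 histone windows with a summit inside, 9 fell in the class under 10 and 18 in the class between 10 and 100, where such matches are uncommon as well. The letters of the consensus were therefore absent from these windows, which says nothing about whether CTCF was there.

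CCAAT was in 41 of 49 histone windows (83.7%) against 37.5% of all windows, and TATAAA in 29 (59.2%) against 13.7%. By family, CCAAT was in all 12 H2A, 13 H2B, 7 H3 and 6 H1 windows but in 3 of 11 H4 windows. The octamer ATTTGCAT was in 9 windows (18.4%) against 1.80%, and these were 4 H2A and 5 H2B windows. The windows of head-to-head partners, such as H2ac12 and H2bc12, overlap. The same letters can thus count for both genes, and these window counts are not independent. AAACACA was in 7 windows (14.3%) against 7.27%, of which 5 were H1 windows. Promoter summits were at 2 of 7 H3 and 1 of 6 H1 genes. Of the 27 histone windows with a summit inside, 25 held CCAAT, 11 TATAAA, 8 ATTTGCAT and 1 AAACACA. A link between these letters and the summits was not tested.

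Within 5 kb of a gene, each of the 53 members had a summit in at least 1 list, against 65.6% of all genes, 81.5% of protein-coding genes and 25.0% of short ones. A summit in all 4 lists was found for 26 members, or 49.1%, against 45.6%, 64.9% and 11.4%. By library the count was 39 in Ins, 29 in Del(CBS8-10), 42 in Inv and 53 in Inv:Del(CBS7-10), or 73.6%, 54.7%, 79.2% and 100% of the members. The share was 58.8%, 53.8%, 50.8% and 59.4% of all genes, 76.7%, 72.1%, 69.7% and 76.9% of protein-coding genes, and 18.2%, 17.7%, 14.4% and 20.2% of short ones. At this distance the shares in Ins and Del(CBS8-10) were thus no higher than those of protein-coding genes. Genes stand close together here, so 1 site can serve several members. Summits of different lists were joined into a site where neighbours lay within 100 bp, which gave 63 sites within 5 kb of a member, 28 in 1 list, 20 in 2, 4 in 3 and 11 in all 4. The share in all 4 was 17.5%, lower than the 29.2% of all sites on chromosome 13. On the chromosomes other than 11 and 13 it was 33.0%.

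The sites found in all lists were mostly away from the starts. A listed histone start lay within 500 bp of 28 sites, 2 of which were in all 4 lists, while 9 of the other 35 were in all 4. The 9 had median percentiles over the lists of 57.8 to 95.8, and the 2 at starts had 39.1 (H2ac15 and H2bc15) and 42.7 (H2ac6). No site with a start within 500 bp reached a median percentile of 75, and the highest was 54.9, at H2bc14. The 6 sites with a median percentile of at least 75 all lay off the starts.

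**Figure D3:**
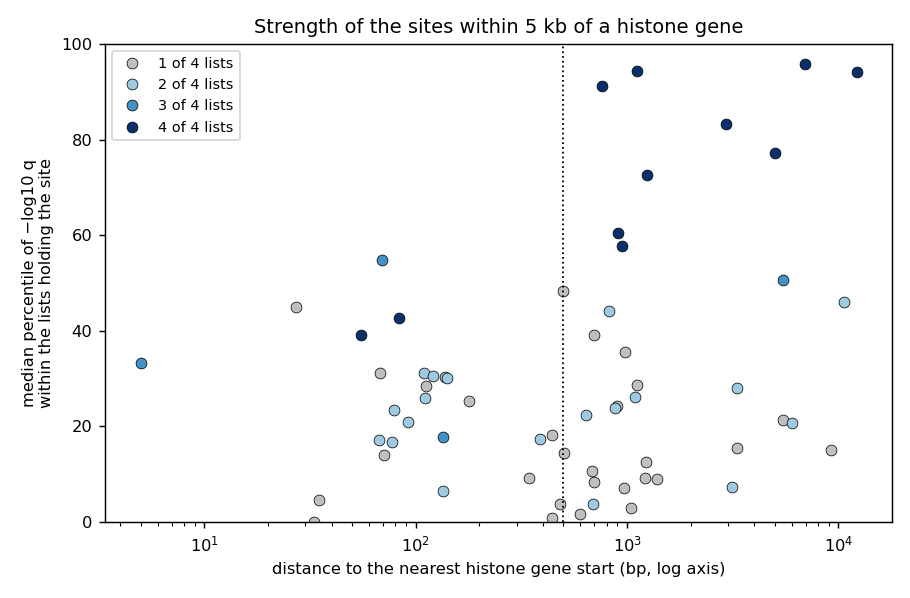
Median percentile of each site within 5 kb of a histone gene, over the lists that hold it, against its distance from the nearest listed histone start. The 6 sites at or above the 75th percentile all lie beyond 500 bp, and the 28 sites inside 500 bp stay at or below 54.9.

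Of these 9 sites, 5 were nearest to genes of the first subcluster, 3 within its bounds and 1 beyond each end. The site with the highest median percentile, 95.8, lay at position 21803255 between H2bc22 and H2bc23, with a −log10 q of 119 in Ins, 71.3 in Del(CBS8-10), 58.8 in Inv and 251 in Inv:Del(CBS7-10). A site at 21734277 lay 757 bp from H4c11, at 96.3, 48.1, 41.2 and 245 in the same order. A site at 21714946, outside the first gene of the cluster and 765 bp from H2bc13, had 49.5, 25.2, 16.6 and 131. These 3 sites lay beside or between genes. Their −log10 q was highest in Inv:Del(CBS7-10), which is also the list with the highest median (24.1), so this is not particular to these sites. The last of them was weaker than the others, at a median percentile of 72.7 and percentile 59.5 of the Inv list.

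Toward the inner end of the first subcluster, a site at 22030616 lay 4506 bp from H2ac12 and 443 bp from the tRNA gene n-TTagt1, with 58.9, 29.1, 17.1 and 190. A site at 22044308 lay just inside the gap, 650 bp beyond H2bc11, with 148, 47.2, 29.4 and 281. It had the highest −log10 q of any site within 5 kb of a member in the Ins list, at a median percentile of 94.3. H2bc11 itself had no promoter summit in Ins.

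The second subcluster held 4 of the 9. The site at 23598162 lay in the long span of H2bc6 and had 103, 59.4, 50.1 and 339, the last being the highest value of any site within 5 kb of a histone gene. A site at 23701389, 2931 bp from H4c3 and 645 bp from Hfe, the iron-regulating gene mutated in haemochromatosis, had 76.8, 33.6, 33.8 and 173. The sites at 23697551 between H1f6 and H4c3 (33.9, 14, 15.2 and 96.3) and at 23563326, 941 bp from H3c6 (46.1, 6.58, 11.5 and 63.2), were lower.

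Just beyond the limit of 5 kb lay further sites found in all lists, 5596 bp to 6299 bp from the nearest member at positions 21710115, 21728800, 22028823, 23524798 and 23732637, while the farthest inside it lay 4506 bp away. At 7218 bp from H2ac24, inside the 202 kb without members in the first subcluster, a site at 21840693 had a −log10 q of 121, 56.3, 64.6 and 256. It lay 3163 bp from H4bc24, a gene whose symbol the rule does not take. With the limit of 5 kb measured from members alone, sites as strong as those taken in were thus left out.

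The members formed 2 subclusters parted by a gap of 1487 kb between H2bc11 and H4c8. The first held 23 genes in 328 kb (21715711 to 22043658) and the second 30 genes in 233 kb (23531044 to 23764412). A promoter summit in at least 1 list was found for 16 of 23 and 13 of 30 genes, and in all 4 lists for 4 and 1. A summit within 5 kb in all 4 lists was found for 17 of 23 and 9 of 30 genes.

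**Figure D4:**
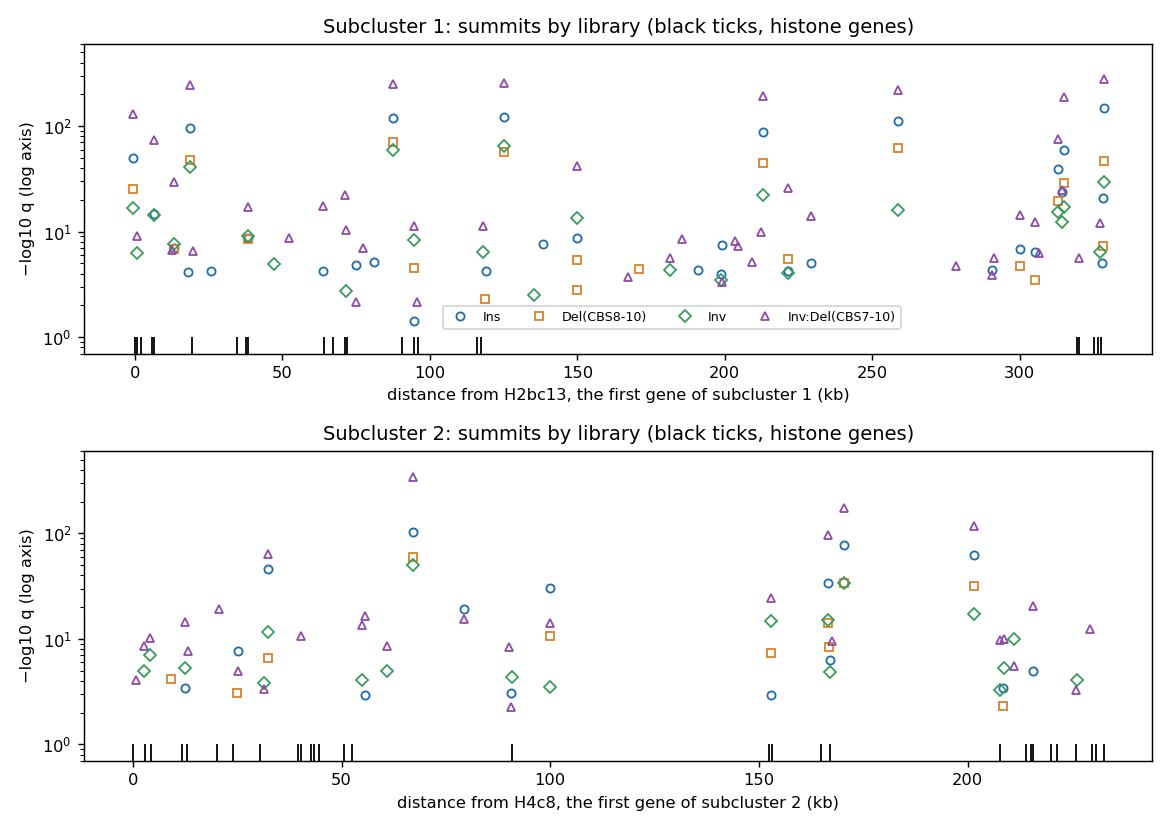
The −log10 q (log axis) of each summit in both subclusters against the distance in kb from the first gene of the subcluster, with a symbol for each library and black ticks for the 23 and 30 histone genes. Columns of 4 symbols are sites found in every list, 11 within the bounds of the first subcluster and 7 within those of the second.

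Sites found in all lists were dense in both subclusters and sparse between them. They numbered 11 in the first subcluster, or 3.35 per 100 kb, 11 in the gap, or 0.74 per 100 kb, and 7 in the second subcluster, or 3 per 100 kb. Chromosome 13 as a whole had 1.43 and the other chromosomes outside chromosome 11 had 1.6 per 100 kb. As a share of the sites in any list, they were 19.3%, 13.1% and 18.4% in the 3 regions. That is below the 29.2% of chromosome 13 and the 33.0% of the other chromosomes. The 202 kb without members inside the first subcluster, between H2ac24 and H2ac12, had 7, or 3.47 per 100 kb, which is close to the density of the subcluster as a whole.

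The gap was uneven. From 22057168 to 23269501 it holds the Vmn1r genes, which encode pheromone receptors of the vomeronasal organ, and their pseudogenes. This stretch of 1212 kb had 2 sites in all 4 lists, or 0.165 per 100 kb. The 261.5 kb that follow, up to H4c8, had 8, or 3.06 per 100 kb, near the level of the subclusters. The longest stretch of the gap without a site in all lists ran for 703 kb from 22044308 to 22747706, and the longest without a summit in any list for 230 kb from 22320115 to 22549999. Vmn1r genes and histone genes have near-identical copies, the sources used here do not say how reads with several matches were treated, and the part of this in the counts was not tested.

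Of 75 Vmn1r genes and pseudogenes in the gap, 7 had a summit within 500 bp in Ins, 5 in Del(CBS8-10), 1 in Inv and 2 in Inv:Del(CBS7-10). In all lists, 0 had 1. Of 46 tRNA genes in the gap, 16, 7, 15 and 20 had 1 in the same order, or 34.8%, 15.2%, 32.6% and 43.5%. Over all 147 genes of the gap the shares were 22.4%, 13.6%, 13.6% and 19.7%. The tRNA genes of the gap were below those outside chromosomes 11 and 13 for a summit in all lists, at 4 (8.70%) against 39 of 251 (15.5%). They were above them for a summit in at least 1 list, at 27 (58.7%) against 108 (43.0%).

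The 3 strongest sites of the gap by median percentile lay toward its far end and at both of its edges. The site at 23401806, 661 bp from the tRNA gene n-TVaac2, had a −log10 q of 331 in Ins, 171 in Del(CBS8-10), 183 in Inv and 547 in Inv:Del(CBS7-10) and a median percentile of 99.9. The site at 23524798, 6.25 kb before H4c8, was the last before the second subcluster and had 103, 50.9, 57.5 and 190. Its median percentile was 92.7, below the 94.3 of the site at 22044308 at the near edge.

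The remaining gap sites among the 10 highest by median percentile were lower. They included the site at 23297992 inside 4930557F10Rik (64.9, 28.2, 14.5 and 144), the site at 23424645, 779 bp from Abt1 (70.2, 19.8, 8.69 and 173), and the site at 22747706 among the Vmn1r genes (30.9, 20, 12.7 and 45). Near tRNA genes lay 23432715 at n-TYgta7 (72.1, 22.5, 7.79 and 30.1) and 23411963 at n-TVcac2 (40.4, 13, 5.61 and 42.8). The site at 22051090 near n-TSgct5 was missing from Inv (43.4, 16.4 and 25.2 in the other lists), and 23412911 was found in Inv:Del(CBS7-10) alone (36.6). The summit nearest the first edge, 43 bp from H2bc11 at 22043701, was in Ins alone and weak (5.02).

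**Figure D5:**
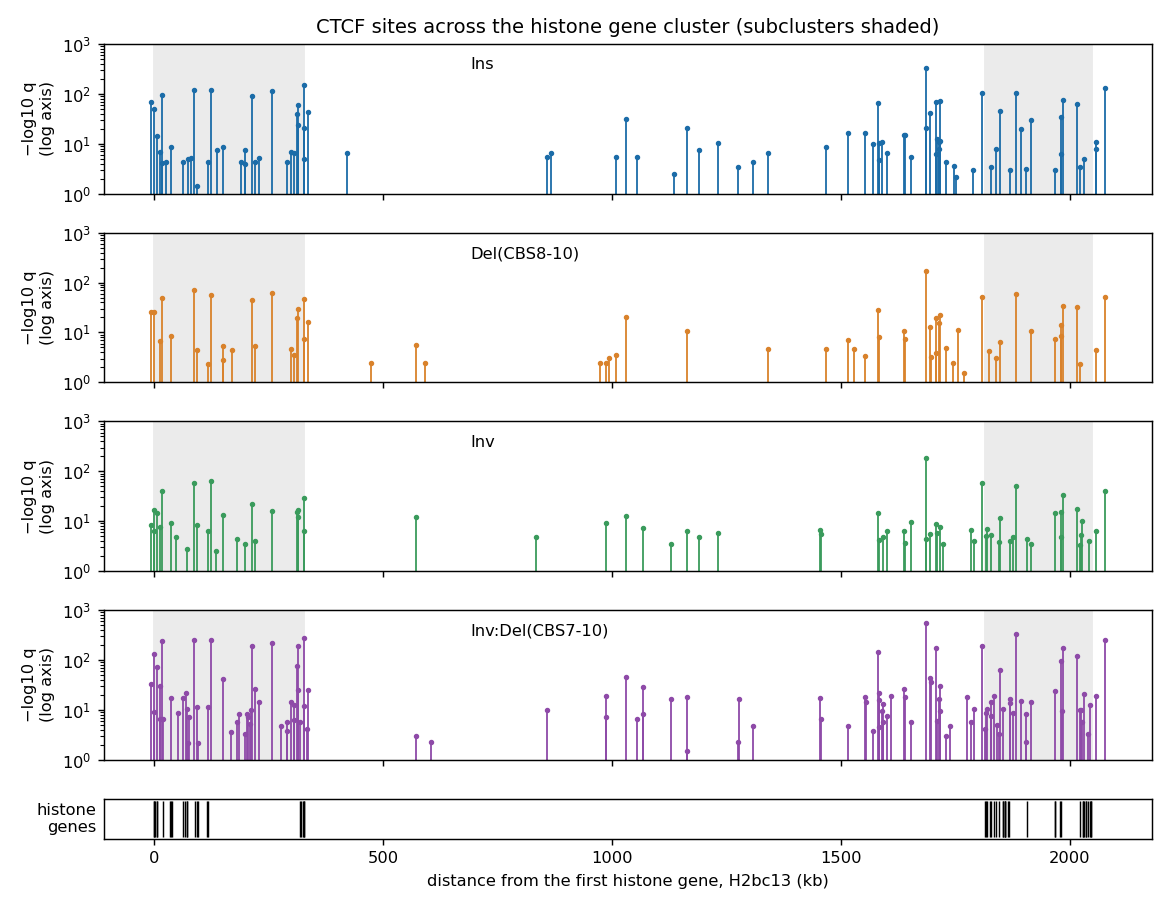
The −log10 q (log axis) of every site in each library against the distance in kb from H2bc13, with the subclusters shaded and the histone genes as black ticks below. Sites gather in the subclusters and in the last 261.5 kb of the gap, and are sparse in the 1212 kb of Vmn1r genes between.

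The other histone genes and the factors that make histone mRNA were read the same way, outside chromosome 11. Of 22 other histone genes, 11 (50.0%) had a promoter summit in at least 1 list and 1 (4.55%) in all lists. The background was 17.0% and 6.78% of all genes and 31.7% and 12.6% of protein-coding genes. The gene found in all lists was H2bc18, with a −log10 q of 8.61 in Ins, 10 in Del(CBS8-10), 14.9 in Inv and 27 in Inv:Del(CBS7-10). Of 11 factors, 7, 5, 5 and 6 had 1 in the same order of libraries, or 63.6%, 45.5%, 45.5% and 54.5%. Over protein-coding genes the share was 26.4%, 16.7%, 20.0% and 24.1%. A promoter summit in all lists was found for 3 factors, or 27.3%, against 12.6% of protein-coding genes. These were Lsm10, a subunit of the U7 particle that cuts histone pre-mRNA (37, 30.1, 34.7 and 35.8), Zfp473, a zinc-finger protein that associates with that particle (20.6, 12.8, 15.1 and 46.6), and Casp8ap2, the processing factor also called FLASH (18, 10.2, 7.22 and 35.4).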

How the data were processed

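CTCF was mapped by CUT&RUN in 4 libraries, 1 per genotype, and each deposited list holds the peaks of 1 library, with nothing pooled. Per the submitters' processing notes, the tools were MACS2 2.2.7.1, bedtools 2.30.0, Bowtie2 2.4.5, cutadapt 4.1 and Picard, on mm10. Their settings, the treatment of reads with several matches and any control library are not stated in what was used here. The deposited lists are on an mm10 with 2 copies of chromosome 11, so chromosome 11 was left out of every background, and chromosome 13 carries its ordinary name.

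The score deposited by the authors is the −log10 q times 10 as a whole number, and it was not needed. The fold and the −log10 p and −log10 q of each peak are those the authors deposited from their peak caller. The lowest −log10 q was 1.3 to 1.31 in the lists. Positions are counted from 1.

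The rest was computed with Python 3.11.15, NumPy 2.4.6, pandas 2.3.3, SciPy 1.17.1 and Matplotlib 3.10.9. Genes and promoter sequences came from RefSeq tables of GRCm38.p6. The tables gave a start for 48 of the 53 members, and the other 5 (H2ac14, H3c7, H2bc4, H2ac5-ps and H3c1) could have a summit in the gene or within 5 kb, but no promoter summit. The gene H4bc24 lies in the window under a symbol that the rule does not take. A promoter summit lay within 500 bp of a start, and summits of different lists within 100 bp of a neighbour made 1 site. The counting was checked on simulated data. No test was possible with 1 library per genotype. Intervals are 95% Wilson intervals.

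The members, gene lists and alternatives were chosen with earlier results of these data known. Named were all members with a summit at the promoter or in the gene, all sites within 5 kb found in every list, the 10 gap sites of highest median percentile with the site nearest each edge, and up to 3 genes of each comparison list with a promoter summit in every list. The promoters printed and the sites just beyond 5 kb were chosen after their values were seen. The results were recomputed with the 20000 strongest peaks of a list, with peaks whose −log10 q reached 10, with promoters of 250 and 1000 bp, windows of 2 and 10 kb, sites joined within 250 bp, and leaving out the Inv library. Motifs were read in promoter windows only, and sequence at other sites was not analysed here.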

Additional observations from a re-analysis of the deposited data

How the results depend on the processing

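Counts depended mostly on how many weak peaks were kept. With a −log10 q of at least 10, histone genes with a summit at the promoter or in the gene went from 31 to 18 in at least 1 list and from 6 to 1 in every list, and those with a summit within 5 kb in every list from 26 to 13. Sites within 5 kb in at least 1 list went from 63 to 30, and gap sites from 84 to 37, or from 11 to 5 in every list. With the 20000 strongest peaks of each list, 1 gene (H2bc6) had a summit at the promoter or in the gene, in at least 1 list and in every list, and 13 and 9 genes had a summit within 5 kb. Sites within 5 kb then numbered 7 and 5, and gap sites 6 and 3. A promoter of 1000 bp gave 11 genes in every list, and a window of 10 kb gave 41 genes and 18 sites in every list. Without Inv, and with sites joined within 250 bp, promoters of 250 bp or windows of 2 kb, each of these counts stayed within 1.5 times, as did 45 of the 78 counts compared, those of single libraries included. The fall with fewer peaks follows from the construction of these alternatives. No paired analysis was possible because each genotype has 1 library and the shared number 1 pairs nothing. Peak lists of single libraries set the limit here, since a site under the threshold in a shallow library cannot be told apart from a site that is absent.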
